A study of Rattus norvegicus with 23 samples.

Results

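The aryl hydrocarbon receptor (AhR) pathway was followed through 8 genes on arrays of rat liver cells in culture: the drug-metabolizing enzymes Cyp1a1, Cyp1a2, Cyp1b1 and Nqo1, the feedback genes Ahrr and Tiparp, the receptor gene Ahr and its partner Arnt. The genes were chosen by name, with earlier results of these arrays known, and the probe sets of the array that name 1 of them and no other gene were taken, with the probe set of highest mean over all arrays standing for its gene. All 8 were found, on 10 probe sets, among 14217 genes on 20826 probe sets that name 1 gene. Cyp1a1 was already known to be among the largest changes of the LSEC fractions and of the 3DHL hepatocytes, so its values there are given as a description with no test.

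RNA was measured on 23 arrays in 8 groups of 3 arrays each, apart from 1 group of 2. The fractions labelled LSECs (liver sinusoidal endothelial cells) came from the 3DHLK model and from the 3DHL model. The groups labelled hepatocytes came from the 3DHLK model, the 3DHL model, the collagen sandwich (CS) and the hepatocyte monolayer (HM). The last groups were labelled Kupffer cells (KCs, the macrophages of the liver), from the 3DHLK model (2 arrays) and from KC monolayers before their use in the model. The KC monolayers were sampled at day 3 and all other groups at day 12. The 3DHL model holds hepatocytes under a detachable polymer film with LSECs on top, and the 3DHLK model holds KCs as well. Hepatocytes and LSECs came from the same isolations from female Lewis rats, whereas the KCs were bought frozen. Cells of the 3D models were separated with beads that carried SE-1 and CD163 antibodies, so each group from these models is a fraction and not a pure cell type. The paper names no such step for HM, CS or KC monolayers. No label names a treatment with a ligand of AhR in any group.

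AhR is a transcription factor of the bHLH-PAS family that waits in the cytoplasm, bound to chaperones, until a planar aromatic compound or a tryptophan product binds it. It then moves to the nucleus, pairs with Arnt and binds xenobiotic response elements, whose core is GCGTG, in the genes it switches on. Cyp1a1 and Cyp1a2, which neighbour each other on rat chromosome 8, and Cyp1b1 encode P450 enzymes that oxidize aromatic hydrocarbons, and NQO1 reduces quinones. AHRR competes with AhR for ARNT, and TIPARP adds ADP-ribose to AhR and lowers its activity, so both act as brakes on the receptor. In liver, CYP1A2 is made by hepatocytes without an inducer, CYP1A1 is made mostly after induction, and CYP1B1 is known mainly from stromal cells.

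The stretches upstream of 4 of the genes are shown because these genes took different courses in the cultures described here. Each is the 250 bases before the start site that RefSeq gives on the GRCr8 build, 5′ to 3′ on the strand of the gene, with each GCGTG core, or its reverse complement CACGC, in capitals. Ahrr lies on the plus strand, with its window at chr1:30821969-30822218. Cyp1b1 is on the plus strand as well, at chr6:21094315-21094564, and the start used for it lies inside the span that RefSeq gives for the gene. Cyp1a2 is on the minus strand, at chr8:66978150-66978399, and Nqo1 is on the minus strand, at chr19:52220268-52220517.
Ahrr: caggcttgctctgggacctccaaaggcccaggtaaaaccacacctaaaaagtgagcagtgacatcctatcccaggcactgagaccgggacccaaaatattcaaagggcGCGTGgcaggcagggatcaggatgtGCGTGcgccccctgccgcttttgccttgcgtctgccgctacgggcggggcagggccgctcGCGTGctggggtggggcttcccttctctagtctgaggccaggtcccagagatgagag
Cyp1b1: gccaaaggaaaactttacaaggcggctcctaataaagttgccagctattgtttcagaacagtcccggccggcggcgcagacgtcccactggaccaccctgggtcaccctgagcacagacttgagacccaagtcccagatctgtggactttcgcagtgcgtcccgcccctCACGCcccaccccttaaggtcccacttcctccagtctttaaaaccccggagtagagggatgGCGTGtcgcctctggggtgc
Cyp1a2: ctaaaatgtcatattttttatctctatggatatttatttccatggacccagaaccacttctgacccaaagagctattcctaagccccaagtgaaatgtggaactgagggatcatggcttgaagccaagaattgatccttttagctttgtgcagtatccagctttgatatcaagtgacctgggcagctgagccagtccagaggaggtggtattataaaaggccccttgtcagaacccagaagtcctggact
Nqo1: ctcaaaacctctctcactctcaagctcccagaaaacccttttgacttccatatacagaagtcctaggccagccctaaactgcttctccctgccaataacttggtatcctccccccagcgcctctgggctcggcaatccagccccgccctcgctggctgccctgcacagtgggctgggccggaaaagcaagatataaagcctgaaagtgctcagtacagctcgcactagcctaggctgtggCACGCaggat
The Ahrr window holds 3 cores, which begin 142, 117 and 57 bases before the start, and 1 of them has the longer form TNGCGTG, which contains the core. The Cyp1b1 window holds 2 cores, 81 and 20 bases before the start, of which 1 has the longer form. Nqo1 has 1 core, 10 bases before the start, and Cyp1a2 has none in these letters. Of the 33469 promoters in the same table, 25.9% hold at least 1 core on either strand within this length, 8.12% at least 2, 2.58% at least 3 and 4.09% the longer form. Among the other genes, Tiparp has 1 core 136 bases before its start, Arnt 1 core 42 bases before its start and Ahr none, so that 5 of the 7 genes matched in the table hold a core. Cyp1a1 was not matched in the table.

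Values are log2 expression values, so that a fold change is 2 to the power of a difference. The level of 1 gene cannot be set against that of another. Array medians lay between 7.41 and 7.53. The labels were checked against marker genes, and several fractions went against theirs. The mean of 18 hepatocyte markers was 12.99 to 13.32 on the 6 LSEC arrays and 12.40 to 12.49 on the KC arrays of the 3DHLK model, against 12.68 to 13.44 on the hepatocyte arrays and 7.01 to 7.71 on KC monolayer arrays. The mean of 19 endothelial markers was 6.32 to 6.57 in the LSEC fractions, within the 6.19 to 6.95 of the hepatocyte groups. At the threshold given below, 2 of the 19 were higher and 3 lower in LSECs than in hepatocytes of 3DHL (40.4% of all genes called). In 3DHLK 7 were higher and 6 lower (60.4% of all genes called). The mean of 16 macrophage markers was 6.77 to 7.05 in the KC fraction of the 3DHLK model, against 11.99 to 12.37 in KC monolayers. The hepatocyte fraction of the 3DHLK model stood apart in having macrophage markers at 7.57 to 7.98 and 18 markers of stellate cells and fibroblasts at a mean of 10.07 to 10.26, against 6.64 to 6.93 and 8.01 to 8.22 in 3DHL hepatocytes. It also carried Eif2s3y, a gene of the Y chromosome, at 8.18 to 8.46, and KC monolayers had it at 8.36 to 9.56, whereas the other groups lay between 3.39 and 3.56. The group names below are the labels of the fractions and cultures, and since every comparison of LSECs or 3DHLK KCs rests on them, none can be given without them.

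Among the AhR genes, Cyp1a1 was 45.9-fold lower in LSECs than in hepatocytes of 3DHL, Cyp1a2 was higher in the hepatocytes of the 3D models than in CS or HM, and Cyp1b1 was 9.16-fold higher in 3DHLK than in 3DHL hepatocytes, whereas Ahr and Arnt moved by little over 1 log2 unit at most. Differences were tested with limma, and a gene was called where its adjusted p (Benjamini-Hochberg over all 14217 genes) was under 0.05. Leaving out Cyp1a1, 7 genes were counted. In 3DHL against HM hepatocytes 4 were called higher and 0 lower, against 7.04% of all genes higher and 4.7% lower (11.7% together), and the median difference was 0.62, against 0.01 over all genes. In 3DHL against CS 5 were called higher and 0 lower, against 12.8% and 9.03% of all genes (21.8%), with medians of 0.51 and -0.02. In 3DHLK against 3DHL hepatocytes 4 were called higher and 1 lower, against 7.72% and 3.76% (11.5%), with medians of 0.51 and -0.08. These comparisons share the 3DHL arrays, so they are not independent. In each of them the share of the 7 genes called was above that of all genes, whereas in CS against HM 0 were called higher and 1 lower, against 11.1% and 10.7% (21.8%).

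In 3DHLK against 3DHL LSECs 2 were called higher and 0 lower, against 3.58% and 3.89% of all genes (7.47%). Between fractions many genes of all kinds were called. LSECs against hepatocytes gave 1 higher and 4 lower in 3DHL, against 18.5% and 21.9% (40.4%), and 1 higher and 5 lower in 3DHLK, against 34.7% and 25.7% (60.4%). LSECs against KCs of 3DHLK gave 0 higher and 2 lower, against 9.73% and 5.35% (15.1%). Hepatocytes against KCs of 3DHLK gave 4 higher and 2 lower, against 25.9% and 30.6% (56.5%). For 3DHLK KCs against KC monolayers 3 were higher and 2 lower, against 44.5% and 20.8% (65.2%), a share near the background. The change with KCs in the model was called different between LSECs and hepatocytes for 0 genes upward and 1 downward, against 3.51% and 6.81% (10.3%).

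Groups whose arrays did not overlap are given for single genes below, and they were common over all genes. The arrays did not overlap for 47.3% of all genes in 3DHL against HM, 50.6% in 3DHL against CS, 46.3% in CS against HM, 36.5% in 3DHLK against 3DHL hepatocytes and 37.3% in 3DHLK against 3DHL LSECs. Between fractions the share was 66.3% for LSECs against hepatocytes of 3DHL, 71.9% for those of 3DHLK, 48.9% for LSECs against KCs, 72.4% for hepatocytes against KCs and 64.5% for 3DHLK KCs against KC monolayers.

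Cyp1a1, the enzyme most used as a readout of AhR, was highest in 3DHL hepatocytes and lowest in the LSEC fraction of the same model. In the LSEC fractions it was at 9.54, 8.21 and 9.31 in 3DHLK, against 6.44, 6.60 and 6.63 in 3DHL. Hepatocytes had 11.36, 11.08 and 11.65 in 3DHLK, against 11.99, 12.10 and 12.14 in 3DHL. The remaining hepatocyte groups had 10.88, 10.82 and 11.12 in CS and 10.62, 10.59 and 10.52 in HM. KCs had 10.38 and 10.79 in 3DHLK, against 7.79, 6.14 and 7.10 in the monolayers. Thus every hepatocyte array and both 3DHLK KC arrays were above every LSEC array, and the LSEC arrays of 3DHLK were all above those of 3DHL and more spread among themselves.

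As a description with no test, LSECs averaged 6.56 ± 0.10 and hepatocytes 12.08 ± 0.08 in 3DHL (SD, n = 3 each), a log2 difference of -5.52 or 45.9-fold. In 3DHLK the corresponding means were 9.02 ± 0.71 and 11.36 ± 0.28, a difference of -2.35 or 5.09-fold. The gap narrowed from both sides, since the 3DHLK LSECs were 2.46 above the 3DHL LSECs and the 3DHLK hepatocytes 0.71 below the 3DHL hepatocytes. Hepatocytes of 3DHL were 1.50 above HM and 1.14 above CS. LSECs of 3DHLK were 1.56 below the KCs of that model. Where the choice of the gene did not use the groups, limma gave a rise in 3DHLK KCs over KC monolayers of 3.57 (standard error 0.34, adjusted p = 5.85e-09), 11.9-fold, whereas 3DHLK hepatocytes against 3DHLK KCs (0.78, adjusted p = 0.0538) and CS against HM (0.37, adjusted p = 0.464) did not pass the threshold of 0.05. Both were called when only the arrays compared were fitted (adjusted p = 0.00829 for hepatocytes against KCs and 0.0253 for CS against HM). The difference between KC groups goes with the hepatocyte markers, which were at 12.40 to 12.49 in 3DHLK KCs and 7.01 to 7.71 in the monolayers, and the part of these in the result was not tested. In the LSEC fractions the hepatocyte markers were at 13.26 to 13.32 in 3DHLK and 12.99 to 13.03 in 3DHL, both above the 12.70 to 12.80 of the 3DHL hepatocytes, in which Cyp1a1 was highest.

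**Figure D1:**
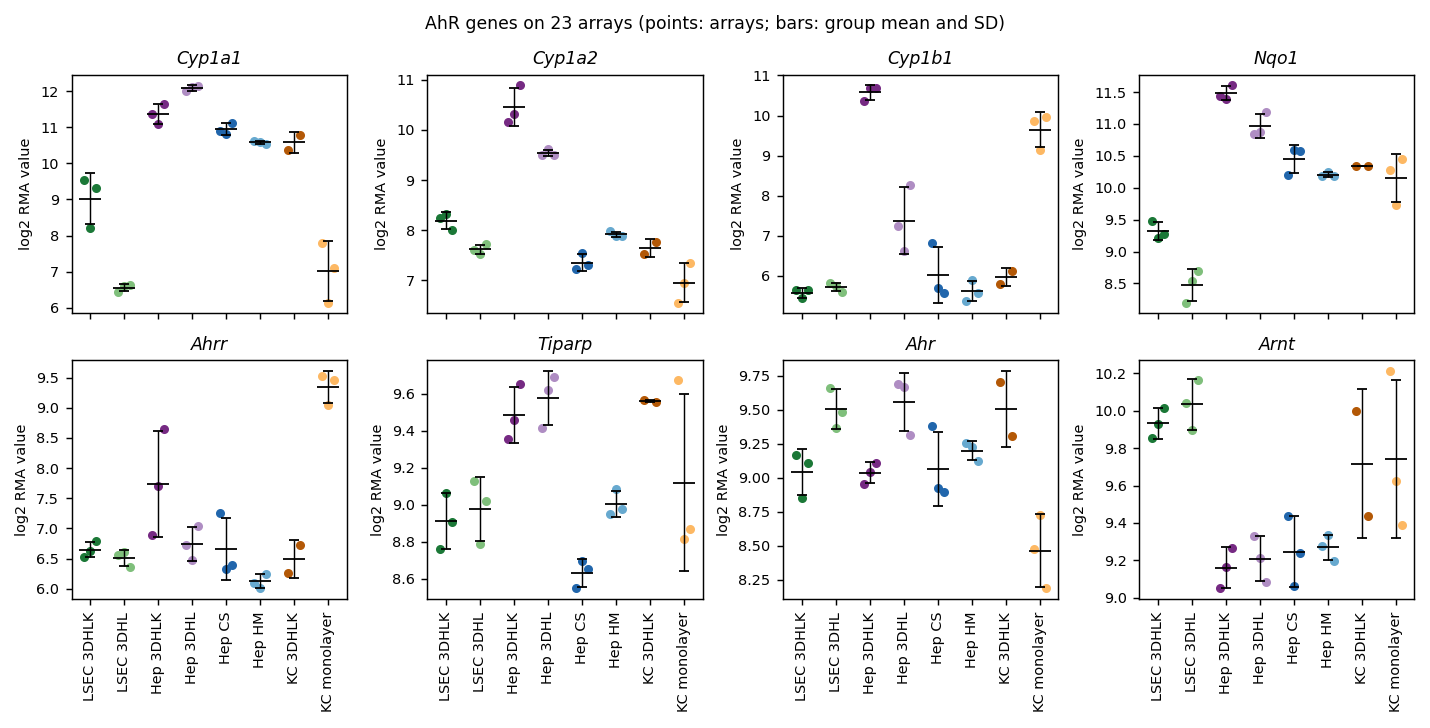
Log2 expression values of the 8 AhR genes (y axes, each panel with its own range) in 8 groups of arrays (x axis), with each array as a point and the group mean and SD as bars. Cyp1a1 is highest in 3DHL hepatocytes and lowest in 3DHL LSECs, Cyp1a2 stands out in the hepatocytes of both 3D models, and Cyp1b1 and Ahrr are high in KC monolayers, with Cyp1b1 also high in 3DHLK hepatocytes.

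Cyp1a2, its neighbour, was high only in the hepatocyte fractions of the 3D models, among these 8 groups. Hepatocytes had 10.16, 10.31 and 10.89 in 3DHLK and 9.50, 9.62 and 9.50 in 3DHL, against 7.22, 7.54 and 7.30 in CS and 7.98, 7.89 and 7.88 in HM. LSEC fractions had 8.25, 8.32 and 8.01 in 3DHLK, against 7.60, 7.54 and 7.73 in 3DHL. KCs had 7.52 and 7.77 in 3DHLK, against 6.56, 6.96 and 7.34 in monolayers. No array of the 3D hepatocytes overlapped with any other group. The 3DHL hepatocytes were above HM by 1.62 (standard error 0.17, adjusted p = 1.65e-06), 3.08-fold, and above CS by 2.19 (adjusted p = 6.89e-09), 4.55-fold. The 3DHLK hepatocytes rose by a further 0.91 over 3DHL hepatocytes (adjusted p = 0.000862). CS was below HM by 0.56 (adjusted p = 0.0241), but this call was lost without any 1 of 5 of the 6 arrays (adjusted p = 0.0554 to 0.0878), all but CS replicate 2.

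Set against hepatocytes of its own model, the LSEC fraction had 1.92 less Cyp1a2 on the log2 scale in 3DHL (adjusted p = 3.82e-08) and 2.26 less in 3DHLK (adjusted p = 8.47e-10). The 3DHLK LSECs were above the 3DHL LSECs by 0.57 (adjusted p = 0.0485), a call that was lost without any 1 of the 6 arrays (adjusted p = 0.0618 to 0.190). The changes of Cyp1a2 with KCs in the model were not shown to differ between LSECs and hepatocytes (difference -0.34, 95% confidence interval -0.85 to 0.18, adjusted p = 0.426). Hepatocytes of 3DHLK had 2.81 more than the KCs of that model (adjusted p = 2.85e-10), and 3DHLK KCs had 0.69 more than KC monolayers (adjusted p = 0.00381), where the median over all genes was 0.27. After centring on 16 housekeeping genes the KC difference was 0.25 and no longer called (adjusted p = 0.350), and without 3DHLK KC replicate 2 it was 0.57 (adjusted p = 0.0565). With cyclic loess it was 0.39 (adjusted p = 0.0975).

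Cyp1b1 was high in 3DHLK hepatocytes and KC monolayers, between in 3DHL hepatocytes and low in the other 5 groups. Hepatocytes had 10.37, 10.68 and 10.67 in 3DHLK, against 7.24, 6.62 and 8.28 in 3DHL. CS had 6.82, 5.69 and 5.57, against 5.38, 5.89 and 5.58 in HM. KCs had 5.81 and 6.13 in 3DHLK, against 9.85, 9.14 and 9.95 in monolayers. In the LSEC fractions it lay between 5.44 and 5.66 in 3DHLK and between 5.61 and 5.81 in 3DHL. The 3DHLK hepatocytes therefore stood above the 3DHL hepatocytes by 3.20 (standard error 0.32, adjusted p = 1.70e-07), 9.16-fold. The LSEC fraction was below its hepatocytes by 4.996 in 3DHLK (adjusted p = 4.25e-11), 31.9-fold, and by 1.65 in 3DHL (adjusted p = 0.000406).

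The 3DHL hepatocytes were above HM by 1.76 in Cyp1b1 (adjusted p = 7.48e-04) and above CS by 1.36 (adjusted p = 0.00379), although 1 CS array overlapped with them. In LSECs, 3DHLK and 3DHL differed by -0.15 (95% confidence interval -0.81 to 0.51, adjusted p = 0.864), and the test of whether LSECs and hepatocytes changed unequally gave -3.34 (standard error 0.45, adjusted p = 2.75e-05). Of the 7 genes tested in this way, Cyp1b1 was the only gene called. Hepatocytes of 3DHLK had 4.61 more than the KCs of that model (adjusted p = 1.37e-09), and 3DHLK KCs differed from KC monolayers by -3.68 (adjusted p = 8.31e-09).

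Stromal and macrophage markers were also high in 3DHLK hepatocytes. Stromal markers and Cyp1b1 moved together in some comparisons and apart in others. In hepatocytes, 18 markers of stellate cells and fibroblasts had a mean of 10.07 to 10.26 in 3DHLK and 8.01 to 8.22 in 3DHL, against 8.05 to 9.36 in CS and 6.74 to 8.58 in HM, of 6.38 to 6.69 in the LSEC fractions, and of 6.87 to 6.91 in 3DHLK KCs against 7.72 to 8.17 in KC monolayers. Of these 18 markers, 12 rose and 0 fell in 3DHLK against 3DHL hepatocytes (11.5% of all genes called), and 10 of 16 macrophage markers rose and 0 fell. In 3DHL against CS hepatocytes, where Cyp1b1 rose by 1.36, 1 stromal marker rose and 3 fell, with a median of -0.42. This count is near the background, since 21.8% of all genes were called there. KC monolayers and CS had stromal means of 7.94 and 8.66 and Cyp1b1 at 9.65 and 6.02. These 2 groups are labelled as different cell types and were sampled on different days, so the pair cannot bear on the source of Cyp1b1. Col1a1, which encodes a chain of type I collagen, was at 12.96 to 13.05 in 3DHLK hepatocytes and 10.09 to 11.48 in 3DHL hepatocytes. Within groups, the array with the highest Cyp1b1 also had the highest mean of the stellate cell list in 6 of the 8 groups. The exceptions were KC monolayers and 3DHLK hepatocytes. In KC monolayers replicate 3 had the highest Cyp1b1 and replicate 1 the highest list mean. In 3DHLK hepatocytes replicates 2 and 3 were near a tie in Cyp1b1, at 10.68 and 10.67, with the list at 10.20 and 10.26. Replicate 1 was lowest in both, at 10.37 and 10.07. With so few arrays in a group, some matches arise by chance. The part of such cells in the Cyp1b1 values was not tested, and in RNA of whole fractions more cells of a type and more RNA per cell cannot be told apart.

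**Figure D2:**
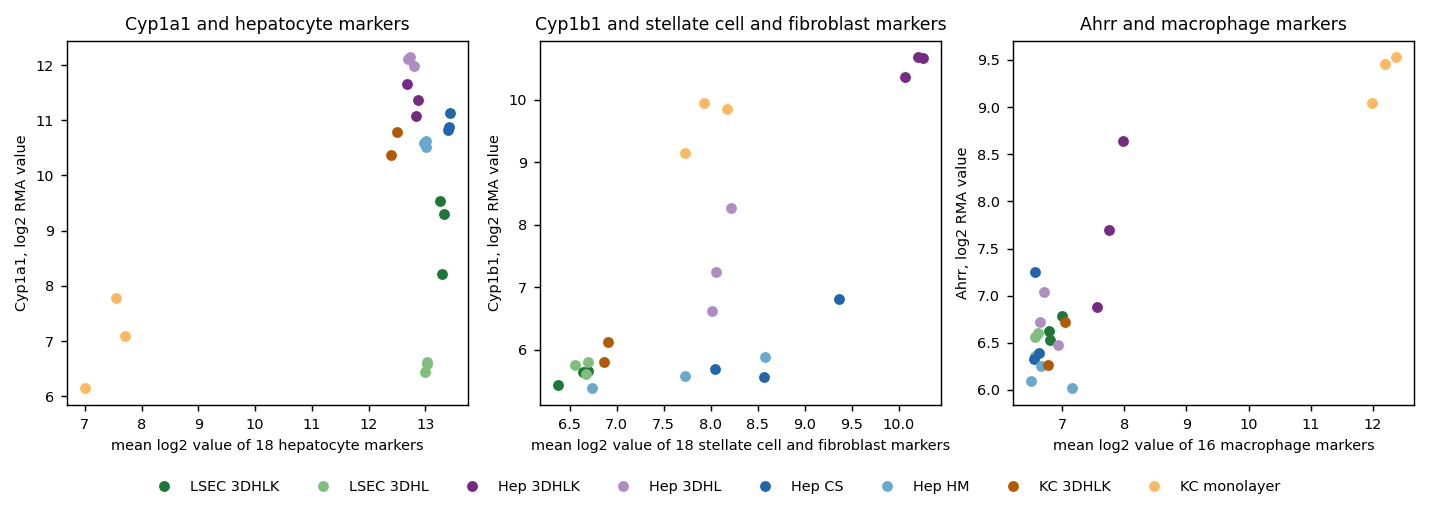
Log2 expression value of a gene (y axis) against the mean log2 value of a marker list (x axis) on each of 23 arrays, coloured by group, for Cyp1a1 with hepatocyte markers, Cyp1b1 with stellate cell and fibroblast markers and Ahrr with macrophage markers. In the first panel the LSEC arrays lie at 12.99 to 13.32 in hepatocyte markers but below all hepatocyte arrays in Cyp1a1, and in the second the 3DHLK hepatocytes are highest on both axes.

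Nqo1, the quinone reductase that both AhR and Nrf2 switch on, followed the order of Cyp1a1 in part. Hepatocytes had 11.44, 11.40 and 11.60 in 3DHLK, 10.83, 10.88 and 11.19 in 3DHL, 10.20, 10.59 and 10.57 in CS and 10.18, 10.25 and 10.18 in HM. LSEC fractions had 9.47, 9.22 and 9.28 in 3DHLK, against 8.20, 8.54 and 8.69 in 3DHL. KCs had 10.34 and 10.35 in 3DHLK, against 10.28, 9.73 and 10.45 in monolayers. All LSEC arrays were below all others, and the 2 LSEC groups did not overlap. LSECs differed from hepatocytes by -2.49 in 3DHL (standard error 0.16, adjusted p = 1.91e-10), 5.61-fold lower, and by -2.16 in 3DHLK (adjusted p = 5.96e-10), 4.46-fold lower. With KCs in the model Nqo1 rose in LSECs by 0.84 (adjusted p = 0.00198) and in hepatocytes by 0.51 (adjusted p = 0.0444), and the changes were not shown to differ (difference 0.33, 95% confidence interval -0.15 to 0.81, adjusted p = 0.406).

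The hepatocyte change was lost without any 1 of 5 of the 6 arrays, all but 3DHL replicate 3 (adjusted p = 0.0595 to 0.176). Nqo1 of 3DHL hepatocytes was above HM by 0.76 (adjusted p = 0.00351) and above CS by 0.51 (adjusted p = 0.0275), the second of which was lost without CS replicate 1 (adjusted p = 0.148) or 3DHL replicate 3 (adjusted p = 0.147). Against 3DHLK KCs, Nqo1 was 1.02 lower in LSECs (adjusted p = 0.000345) and 1.14 higher in hepatocytes (adjusted p = 3.17e-05). The 3DHLK KCs and KC monolayers differed by 0.19 (adjusted p = 0.373), a difference that turned to -0.41 and was called with cyclic loess normalization (adjusted p = 0.0292).

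Ahrr, the repressor, was high in KC monolayers. KCs had 6.27 and 6.72 in 3DHLK, against 9.53, 9.05 and 9.46 in the monolayers, a difference of -2.85 (standard error 0.33, adjusted p = 1.34e-07), 7.21-fold lower. Hepatocytes had 6.88, 7.70 and 8.64 in 3DHLK, against 6.72, 6.48 and 7.04 in 3DHL. The 3 arrays of the 3DHLK group were far apart and 1 of them lay within the range of the 3DHL group. This rise of 0.998 was called (adjusted p = 0.0297), but without 3DHLK replicate 3 it was 0.55 (adjusted p = 0.229), and it was also lost without 3DHLK replicate 2 and without 3DHL replicate 1 or 2 (adjusted p = 0.0563 to 0.141). CS had 7.25, 6.33 and 6.39, against 6.10, 6.02 and 6.25 in HM, which did not overlap but were not called (0.54, adjusted p = 0.226). In LSECs all 6 arrays lay between 6.36 and 6.78.

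In 3DHLK, Ahrr was 1.09 lower in LSECs than in hepatocytes (adjusted p = 0.00333) and 1.25 higher in hepatocytes than in KCs (adjusted p = 0.00317). Without hepatocyte replicate 3 these differences were -0.64 (adjusted p = 0.0385) and 0.80 (adjusted p = 0.0223), and without 3DHLK KC replicate 1 the second was 1.02 and no longer called (adjusted p = 0.0524). Macrophage markers stood in the same order as Ahrr on the 3DHLK hepatocyte arrays, at 7.57, 7.75 and 7.98, and were highest, at 11.99 to 12.37, in KC monolayers. Within groups the array with the highest Ahrr also had the highest mean of the macrophage list in 5 of the 8 groups, where so few arrays give some matches by chance. The part of macrophage RNA in the Ahrr values was not tested.

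Tiparp, the other brake on AhR, varied less. Hepatocytes had 9.35, 9.46 and 9.65 in 3DHLK and 9.41, 9.62 and 9.69 in 3DHL, against 8.55, 8.70 and 8.66 in CS and 8.95, 9.08 and 8.98 in HM. LSECs had 8.76, 9.06 and 8.90 in 3DHLK and 9.13, 8.79 and 9.02 in 3DHL. On this probe set the 3D hepatocytes of both models were above both simpler hepatocyte cultures on every array. On the other Tiparp probe set 3DHLK hepatocytes had the lowest mean of all groups, 5.40, against 5.88 in 3DHL, 5.45 in CS and 5.78 in HM. The 3DHL hepatocytes exceeded CS by 0.94 (standard error 0.17, adjusted p = 0.000268) and HM by 0.57 (adjusted p = 0.0274), the second of which was lost without any 1 of 5 of the 6 arrays, all but 3DHL replicate 1 (adjusted p = 0.0513 to 0.109). The difference from HM was also lost with housekeeping centring (0.42, adjusted p = 0.0567) and with the mean of both Tiparp probe sets (0.34, adjusted p = 0.317), the second of which gave 0.11 alone (adjusted p = 0.862). With KCs in the model it changed by -0.09 in hepatocytes (adjusted p = 0.799) and by -0.07 in LSECs (adjusted p = 0.880).

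LSECs had less Tiparp than hepatocytes by 0.60 in 3DHL (adjusted p = 0.00747) and by 0.58 in 3DHLK (adjusted p = 0.00535). The second, dimmer Tiparp probe set went the other way, with LSECs higher than hepatocytes by 0.98 in 3DHL (adjusted p = 0.00799) and by 1.31 in 3DHLK (adjusted p = 0.000420), so the direction of Tiparp between these fractions depends on the probe set. KCs had 9.56 on both 3DHLK arrays, against 9.67, 8.82 and 8.87 in the monolayers. This difference of 0.44 was called (adjusted p = 0.0427) but was -0.00083 after centring on the housekeeping genes (adjusted p = 0.997) and 0.02 with cyclic loess normalization (adjusted p = 0.893). It was also lost without either 3DHLK KC array or without monolayer replicate 2 or 3 (adjusted p = 0.122 to 0.176), and was 0.72 without monolayer replicate 1 (adjusted p = 8.43e-05). Against 3DHLK KCs, LSECs were 0.65 lower (adjusted p = 0.0192), a call lost without LSEC replicate 1 or either KC array (adjusted p = 0.0732 to 0.109). The mean of both probe sets gave -0.47 (adjusted p = 0.191) and the second alone -0.28 (adjusted p = 0.638), neither called. Hepatocytes of 3DHLK differed from these KCs by -0.07 on the first probe set (adjusted p = 0.757). The second gave -1.59 (adjusted p = 0.000231) and the mean of both -0.83 (adjusted p = 0.00402).

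Ahr, the receptor, had group means between 8.46 and 9.56. LSECs had 9.17, 8.85 and 9.11 in 3DHLK, against 9.66, 9.37 and 9.48 in 3DHL. Hepatocytes had 8.96, 9.05 and 9.11 in 3DHLK, against 9.69, 9.66 and 9.32 in 3DHL. The same step down with KCs in the model was thus seen in both fractions, with no overlap of arrays, but passed the threshold in hepatocytes (-0.52, standard error 0.16, adjusted p = 0.0333) and not in LSECs (-0.46, adjusted p = 0.0814, or 0.0295 in a fit without KC monolayers), and the changes were not shown to differ (difference 0.06, 95% confidence interval -0.40 to 0.52, adjusted p = 0.898). The hepatocyte call was lost without any 1 of 5 of the 6 arrays, all but 3DHL replicate 3 (adjusted p = 0.0603 to 0.146), with cyclic loess (-0.45, adjusted p = 0.0994) and with housekeeping centring (-0.43, adjusted p = 0.137). LSECs and hepatocytes of the same model differed by -0.05 in 3DHL (95% confidence interval -0.38 to 0.27) and by 0.01 in 3DHLK (95% confidence interval -0.32 to 0.33), where Cyp1a1 stood 45.9-fold and 5.09-fold lower in LSECs.

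Hepatocytes had Ahr at 9.38, 8.93 and 8.89 in CS, against 9.25, 9.22 and 9.12 in HM. The 3DHL hepatocytes were 0.49 above CS (adjusted p = 0.0288), a call lost without any 1 of 4 of the 6 arrays (adjusted p = 0.106 to 0.127), namely CS replicates 2 and 3 and 3DHL replicates 1 and 2. It was also lost with cyclic loess (adjusted p = 0.118), with housekeeping centring (adjusted p = 0.0933) and with the mean of both Ahr probe sets (0.26, adjusted p = 0.162), the second of which gave 0.03 alone (adjusted p = 0.900). KCs had 9.70 and 9.31 in 3DHLK, against 8.48, 8.72 and 8.18 in monolayers, the lowest values of any group on this probe set. On the dimmer second Ahr probe set the monolayers had the highest group mean, 7.27, against 5.87 to 7.04 in the other groups. The rise in 3DHLK KCs was thus 1.04 (adjusted p = 2.25e-05) on the first and -0.23 (adjusted p = 0.214) on the second, and the mean of both gave 0.41 (adjusted p = 0.0197). With cyclic loess the first gave 0.62 (adjusted p = 0.00828) and with housekeeping centring 0.60 (adjusted p = 0.0115). Hepatocytes of 3DHLK were 0.47 below the KCs of that model (adjusted p = 0.0279), and this was lost without 3DHLK KC replicate 1 (-0.27, adjusted p = 0.310) or hepatocyte replicate 1 or 2 (adjusted p = 0.0713 and 0.0508), and with housekeeping centring (adjusted p = 0.114), whereas the mean of both probe sets gave -0.82 (adjusted p = 0.000113). In the second probe set, LSECs were above hepatocytes by 0.40 in 3DHL (adjusted p = 0.0277) and by 0.60 in 3DHLK (adjusted p = 0.00106).

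Arnt, the partner that AhR shares with other bHLH-PAS factors, was higher in the LSEC fractions than in hepatocytes, and no difference between cultures of a fraction was called. LSECs had 9.85, 9.93 and 10.02 in 3DHLK and 10.04, 9.90 and 10.17 in 3DHL. All 12 hepatocyte arrays lay between 9.05 and 9.44, with group means from 9.16 to 9.27. KCs averaged 9.72 ± 0.40 in 3DHLK (SD, n = 2), against 10.21, 9.63 and 9.39 in monolayers, which overlapped (-0.02, adjusted p = 0.917). Here cyclic loess gave -0.51 (adjusted p = 0.00827) and centring on the housekeeping genes -0.47 (adjusted p = 0.0184), both called. LSECs were above hepatocytes by 0.83 in 3DHL (standard error 0.17, adjusted p = 0.000677) and by 0.77 in 3DHLK (adjusted p = 0.000578). Hepatocytes of 3DHLK were 0.56 below KCs (adjusted p = 0.0160), a difference that was -0.28 without 3DHLK KC replicate 1 (adjusted p = 0.318) and -0.84 without KC replicate 2 (adjusted p = 0.0056).

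**Figure D3:**
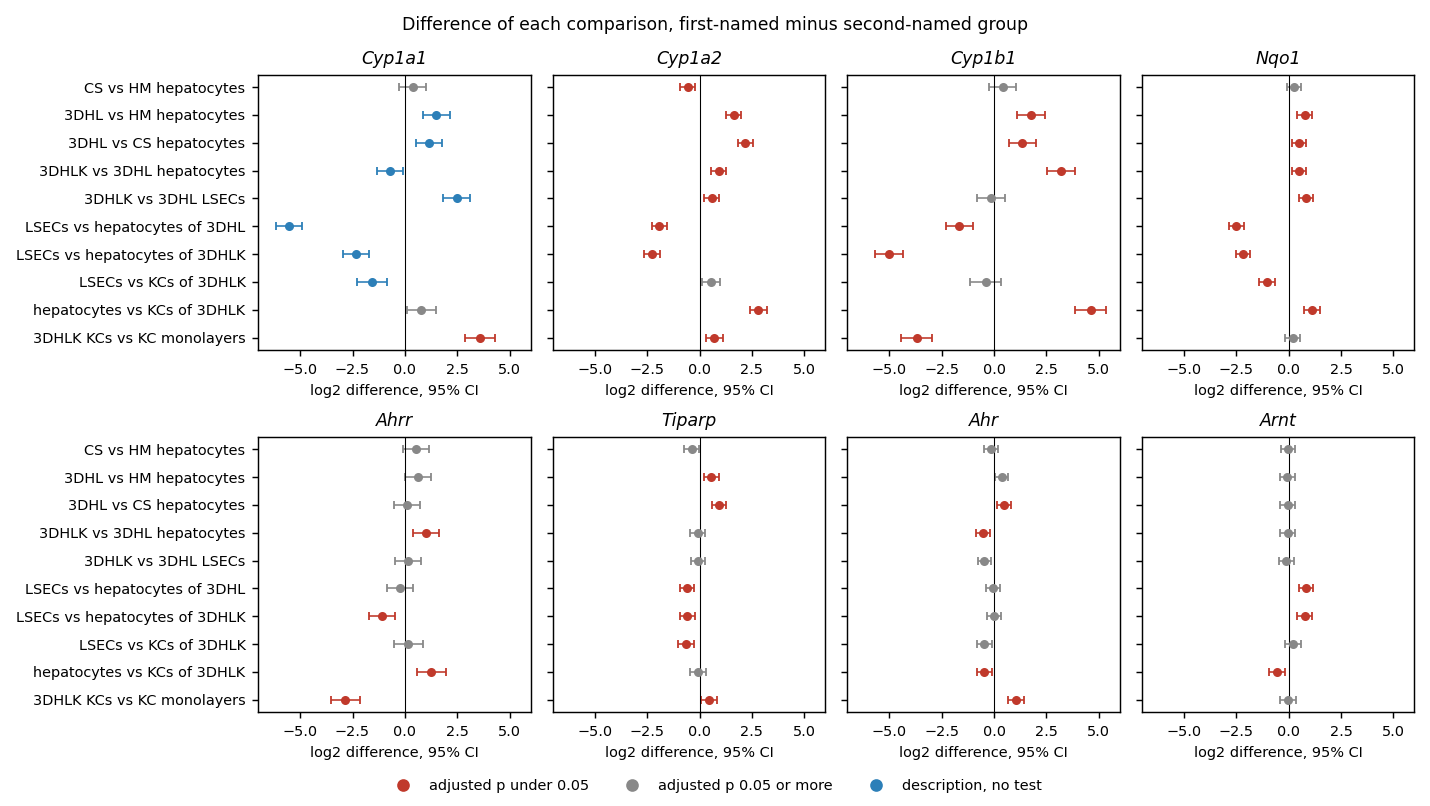
Log2 difference between the first-named and the second-named group (x axis) with its 95% confidence interval for each of the 8 AhR genes in 10 comparisons (y axis), coloured by whether the limma adjusted p was under 0.05, or was not tested. Cyp1b1 lies at -4.996 between LSECs and hepatocytes of 3DHLK and Cyp1a1 at -5.52 between those of 3DHL, whereas Arnt stays within 0.83 of 0 throughout.

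Other genes of the AhR battery, a list of 12 measured genes reported as AhR targets, did not move as a block. In 3DHL against HM hepatocytes 4 rose and 1 fell (11.7% of all genes called), with a median of 0.43 against 0.01 over all genes. The largest rise was that of Aldh3a1, an aldehyde dehydrogenase of the classical battery, by 2.29 (adjusted p = 2.77e-09), and Ugdh, which makes the sugar donor for glucuronidation, rose by 1.06 (adjusted p = 2.72e-06). In group means Aldh3a1 was at 9.33 ± 0.16 in 3DHLK hepatocytes, 10.17 ± 0.04 in 3DHL hepatocytes, 7.58 ± 0.16 in CS and 7.89 ± 0.23 in HM (SD, n = 3 each). LSECs had 7.01 ± 0.18 in 3DHLK and 6.66 ± 0.27 in 3DHL. It thus ran with Cyp1a1 in being highest in 3DHL hepatocytes and lower in 3DHLK hepatocytes, by 0.84 (adjusted p = 0.000686).

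In 3DHLK against 3DHL hepatocytes 3 of the 12 rose and 1 fell (11.5% of all genes called). Scin, which encodes an actin-severing protein, rose by 3.66 (adjusted p = 4.39e-12), and Xdh, xanthine dehydrogenase, rose by 3.23 (adjusted p = 1.61e-11). Xdh was also high in KC monolayers, at 11.53, against 7.79 in 3DHLK KCs, so that Xdh was high in the same groups as Cyp1b1. The part of the stromal and macrophage RNA given above in these values was not tested. Setting the LSEC change against the hepatocyte change, Scin gave -3.71 (adjusted p = 3.62e-09) and Xdh -2.56 (adjusted p = 3.64e-07), and Aldh3a1 gave 1.19 (adjusted p = 0.000993). LSECs against hepatocytes gave 2 higher and 5 lower in 3DHL, where 40.4% of all genes were called, and 2 higher and 6 lower in 3DHLK, where 60.4% were called.

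Partners and relatives of AhR were counted beside the share of all genes called. Of 10 measured genes of the receptor complex and the bHLH-PAS family, 1 rose and 1 fell in CS against HM (21.8% of all genes called), 1 rose in 3DHL against HM (11.7%), 1 fell in 3DHL against CS (21.8%) and 2 rose in 3DHLK against 3DHL hepatocytes (11.5%). One of the last was Epas1, the HIF-2α gene, another partner of Arnt, by 0.76 (adjusted p = 3.24e-05). Epas1 was lower in LSECs than in hepatocytes, by 0.71 in 3DHL (adjusted p = 4.46e-05) and by 0.87 in 3DHLK (adjusted p = 1.12e-06). In 3DHLK KCs against KC monolayers 7 rose and 0 fell, where 44.5% of all genes rose and 65.2% were called, with a median of 0.86 against 0.27 over all genes. The list was led by Npas2, a clock factor, at 3.53 and Epas1 at 2.37.

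Nrf2, encoded by Nfe2l2, is the factor that shares Nqo1 with AhR, and 16 of its other targets were measured. In 3DHL hepatocytes 7 rose and 0 fell against HM (11.7% of all genes called), and 8 rose and 1 fell against CS (21.8%), among them Slc7a11, which imports cystine, by 1.59 and 1.68, and Hmox1, which breaks down heme, by 1.68 and 1.26. In 3DHLK against 3DHL hepatocytes, where Nqo1 rose by 0.51, 0 of the 16 rose and 2 fell (11.5% of all genes called), a share near the background. LSECs against hepatocytes of 3DHL gave 0 higher and 9 lower (40.4% of all genes called), led by Slc7a11 at -1.95, and LSECs of 3DHLK against 3DHL gave 4 higher and 0 lower (7.47%). Nfe2l2 itself was below HM in 3DHL hepatocytes by 0.39 (adjusted p = 0.0138).

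Enzymes of the route from tryptophan through kynurenine, a source of AhR ligands, were counted beside the AhR genes, with no test between the lists. Of 9 measured, 8 rose and 0 fell in CS against HM (21.8% of all genes called) and 0 rose and 7 fell in 3DHL against CS (21.8%). Hepatocyte markers went the same way, with 6 of 18 higher and 0 lower in CS against HM and 0 higher and 8 lower in 3DHL against CS, and their part in these counts was not tested. Haao rose by 1.63 in CS and Kmo, which hydroxylates kynurenine, by 1.39. Tdo2, the first enzyme of the route in hepatocytes, rose by 1.18 in CS against HM (adjusted p = 0.00364) and fell by 0.995 in 3DHL against CS (adjusted p = 0.0135). In LSECs 6 rose and 0 fell with KCs in the model (7.47% of all genes called), where 2 of the 7 AhR genes rose and 0 fell. Other hepatic P450s, 15 measured, went the same way as these enzymes, with 11 higher and 0 lower in CS against HM and 1 higher and 9 lower in 3DHL against CS, led by the bile acid enzyme Cyp7a1 at -2.90. Of 13 HIF targets, 3 rose and 2 fell in that comparison.

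Genes with group means most like those of each AhR gene were ranked by Pearson's r over the 8 group means, among 7998 genes whose group means span at least 1 log2 unit. The 8 means share arrays and fractions, and the values are a description. Cyp1b1 was closest to Serpinb2 (r = 0.991), Wt1 (0.981) and Tnfaip8 (0.976), and Ahrr to Epb41l3 (0.990), Vsir (0.988) and Dram1 (0.988). Cyp1a2 was closest to Clic3 (0.972), Sbsn (0.954) and Efemp1 (0.946), and Cyp1a1 to Mrpl49 (0.947), Chmp5 (0.939), Tcfl5 (0.938), Zfp330 (0.936) and Bag5 (0.927). Arnt was closest to Slc7a5 (0.985), Gdf15 (0.979) and Extl1 (0.966), Ahr to Cds2 (0.974), Pkmyt1 (0.973) and Zfp457 (0.969), Tiparp to Purg (0.939), Dsn1 (0.937) and Atg14 (0.931), and Nqo1 to Fpgt (0.951), Scyl3 (0.938) and Ccdc134 (0.937). Between the AhR genes r was 0.826 for Cyp1b1 and Ahrr, 0.796 for Cyp1a1 and Nqo1, 0.610 for Cyp1a1 and Cyp1a2 and 0.047 for Cyp1a1 and Cyp1b1, and it was -0.835 for Cyp1a1 and Arnt.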

How the data were processed

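RNA of each fraction or culture was amplified and hybridized to Affymetrix rat genome arrays. The authors used Simpleaffy for quality control and RMA in R (no version given in the sources used here), which corrects background, sets all arrays to the same quantiles and summarizes probes, and the deposited values are on the log2 scale. Precision is limited by how few arrays a group has. The 31099 probe sets hold 57 controls, 20826 that name 1 gene and were used, 436 with several genes and 9831 with none here. The probe set of highest mean stood for each of 4525 genes with several.

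Groups were taken from the labels and compared with limma 3.58.1 in R 4.3.3 (lmFit on 8 group means, contrasts, eBayes), with Benjamini-Hochberg adjustment over 14217 genes at 0.05. Intervals are 95% confidence intervals of the fit. The study itself ordered genes by a signal-to-noise measure for gene set analysis, and limma was used here for single genes. The genes and gene lists were chosen with earlier results of these data known. Named genes are the 8 AhR genes, up to 2 of the largest called changes in each direction of a list per comparison described, with the course of a named gene followed in other comparisons and Nfe2l2 and Tdo2 chosen after their values were seen, and the 3 genes (5 for Cyp1a1) nearest in group means. Col1a1 and Eif2s3y were named as markers, outside this rule. Nothing in the labels says that the arrays of a group came from separate animals, so a p-value reflects only how far these arrays spread, and that spread may be technical. Arrays of a group correlated at 0.942 to 0.998, and none were identical. Pairing by replicate number was not seen on average. Same-numbered arrays of different groups deviated from their group means with a mean correlation of -0.017 (77 pairs), against 0.008 for other-numbered arrays (154 pairs). This mean pools all pairs of groups, so it cannot exclude a pairing of particular groups. The fit was tested on simulated data. Alternatives were the mean of all probe sets, a filter at the 30th percentile, cyclic loess, centring on 16 housekeeping genes, trended and robust eBayes, a replicate block, a fit on the arrays compared, no KC monolayers, and leaving out each array. Promoter windows came from RefSeq (GRCr8) and were read with Python 3.11.15.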

Additional observations from a re-analysis of the deposited data

Results flagged for a closer look

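Cyp1b1 differed between fractions in its change with KCs in the model. It changed by -0.15 in LSECs and rose by 3.20 in hepatocytes, 3DHLK against 3DHL, and the test of this difference gave -3.34 (limma, adjusted p = 2.75e-05). All 3 hepatocyte arrays of 3DHLK were above all 3 of 3DHL, whereas the LSEC arrays overlapped. The LSEC values, 5.44 to 5.81, were low on these arrays, so a fall there might not show. The 3DHLK hepatocyte fraction also had stellate cell and fibroblast markers at a mean of 10.07 to 10.26, against 8.01 to 8.22 in 3DHL hepatocytes. Macrophage markers were at 7.57 to 7.98, against 6.64 to 6.93. The part of such cells in the Cyp1b1 difference was not tested.

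Cyp1a1 moved in opposite directions in the 2 fractions. All 3 LSEC arrays of 3DHLK were above all 3 of 3DHL, by 2.46 in the mean, and all 3 hepatocyte arrays of 3DHLK were below all 3 of 3DHL, by 0.71. The difference of 3.17 was not tested, because the gene was chosen with its change in these groups known.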

How the results depend on the processing

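The numbers of AhR genes called, of the 7 other than Cyp1a1, were stable within 1.5 times in 77 of 87 alternatives that kept all arrays of the groups compared. The exceptions were 2 for CS against HM (1 as reported) with cyclic loess, with housekeeping centring, with a fit on the arrays compared and without KC monolayers. They were 3 for 3DHLK against 3DHL hepatocytes (5) with the low-value filter, which removes Cyp1b1 and Ahrr, and 1 for 3DHLK against 3DHL LSECs (2) with housekeeping centring. LSECs against KCs (2) gave 4 without KC monolayers, 3DHLK KCs against monolayers (5) gave 3 with the filter and 3 with a fit on the arrays compared, and the difference of LSEC and hepatocyte changes (1) gave 0 with the filter. A stable number can hide a change of genes. With cyclic loess, 3DHLK KCs against monolayers lost Cyp1a2 and Tiparp and gained Arnt and Nqo1. With the mean of all probe sets, LSECs against KCs lost Tiparp and gained Ahr (-0.52, adjusted p = 0.0184).

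Leaving out 1 array, the numbers ran from 0 to 1 for CS against HM, 2 to 5 for 3DHLK against 3DHL hepatocytes, 1 to 1 for LSECs, 1 to 2 for LSECs against KCs, 3 to 6 for hepatocytes against KCs, 3 to 5 for 3DHLK KCs against monolayers and 1 to 2 for the difference of changes, where Ahrr was called too without 3DHLK hepatocyte replicate 1 (-1.29, adjusted p = 0.0232). They were 3 to 4 for 3DHL against HM, 4 to 4 for 3DHL against CS, 5 to 5 for LSECs against hepatocytes of 3DHL and 6 to 6 for those of 3DHLK.

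Of 674 single differences under the alternatives with all arrays, 633 stayed on their side of the threshold, 17 lost the call, 20 gained it and 4 turned with a call on 1 side. Among the 633, 11 differences that were never called changed sign. The mean of all probe sets turned Tiparp in LSECs against hepatocytes to 0.19 in 3DHL (adjusted p = 0.455) and 0.37 in 3DHLK (adjusted p = 0.122), cyclic loess turned Nqo1 in 3DHLK KCs against monolayers to -0.41 (adjusted p = 0.0292), and housekeeping centring turned Tiparp there to -0.00083 (adjusted p = 0.997). The cause of these changes was not tested, apart from the filter and the probe sets. The share of higher calls among all genes called moved by over 10 points under a scaling in 8 of 11 comparisons. It was 68.2% for 3DHLK KCs against monolayers (51.2% with cyclic loess, 40.6% with centring) and 60.0% for 3DHL against HM (44.4% and 29.3%). With centring it was 37.1% for CS against HM (50.8% as reported), 83.03% for 3DHLK against 3DHL hepatocytes (67.3%), 45.8% for LSECs against hepatocytes of 3DHLK (57.5%), 59.1% for hepatocytes against KCs (45.8%) and 17.1% for the difference of changes (34.0%), and with cyclic loess 53.9% for LSECs against KCs (64.5%).

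Pairing by replicate number was not seen in the mean over all pairs of groups, which cannot exclude it for particular groups. With the replicate block the numbers of genes called were 4 for 3DHL against HM, 5 for 3DHLK against 3DHL hepatocytes, 2 for LSECs and 4 for 3DHLK KCs against monolayers, where Tiparp was lost (0.44, adjusted p = 0.056), and no other call changed.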
